A study of Mus musculus with 6 samples.

Results

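TNF superfamily ligands and receptors were examined in tumors of the AOM/DSS model of colitis-associated carcinogenesis. The group was defined by name, as the protein-coding genes whose symbols begin with Tnfsf or Tnfrsf followed by a number, together with Tnf, Lta, Fasl, Cd40, Cd40lg, Cd27 and Cd70. This rule found 38 genes, 16 ligands and 22 receptors, among 54532 listed genes, of which 22046 were protein-coding. It left out superfamily genes with other symbols, such as Ltb, Ltbr and Fas, which are described as a separate list. The samples were 3 tumors of Tmem173fl/fl mice, labelled WT, and 3 tumors of Tmem173fl/flLzym-Creert2 mice, labelled CRE and called Tmem173iΔmye here (Lzym is the labels' spelling, and the study's methods write Lyz2), all profiled by RNA-seq. Tmem173, the gene encoding STING, was flanked by loxP sites in both groups, and both were given AOM and 3 cycles of DSS and then tamoxifen, which activates Creert2. Cre was driven by the Lyz2 promoter, which is active in macrophages, monocytes and neutrophils, so epithelial tumor cells, lymphocytes and stromal cells were not targeted. The study also treats dendritic cells grown from bone marrow of Tmem173iΔmye mice as STING knockout cells. Deletion in the dendritic cells of these tumors was not measured here. An age was not tied to these mice in the sources used here. The comparison asks how tumors differed when deletion of myeloid STING was induced after they had formed.

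Ligands of the TNF superfamily are mostly trimers made by immune cells, and their receptors sit on immune, epithelial and stromal cells. Binding clusters the receptor and recruits TRAF proteins, which activate NF-kB and MAP kinases, or, for receptors with a death domain, adaptors that can start caspases. Decoy receptors bind ligands without passing on a signal. In the colon, TNF drives inflammation in colitis and is the target of antibody therapy, while other members costimulate T cells or keep B cells alive.

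Totals ran from 15329810 to 16533732 counts per tumor. Tmem173 itself had between 1705 and 2911 counts in Tmem173fl/fl tumors and between 1953 and 2291 in Tmem173iΔmye tumors, so whole tumor RNA did not separate the genotypes at the targeted gene. The 7 epithelial markers, Epcam and Krt8 among them, summed to between 9378 and 11805 CPM, which are counts scaled to the normalized size of each library, and were present in every tumor. Tumor 1 of the Tmem173iΔmye group stood apart, with 20 interferon-inducible genes summing to 2448 CPM against 531 to 970 CPM in the other 5 tumors. Y-linked genes had 3547 counts in Tmem173fl/fl tumor 1, 2875 and 2655 in Tmem173iΔmye tumors 1 and 2, and at most 2 in each of the others, so the groups were not balanced for sex. The labels do not state that tumors came from separate mice, and p-values here measure the spread between these samples. In whole tissue, fewer cells of a type and less RNA per cell cannot be told apart.

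All 38 members had the coordinates of GENCODE M21 on GRCm38. Of these, 20 lay in 9 clusters with gaps of at most 200 kb, and 18 stood alone. Tnf and Lta were neighbors at chr17:35199381-35205351, and Tnfsf9, Cd70 and Tnfsf14 lay together at chr17:57105325-57194177. The receptors Tnfrsf26, Tnfrsf22 and Tnfrsf23 formed a row of closely related genes at chr7:143607659-143685872, so their counts depend on how the authors' counting treated reads that match more than one of them. Tnfsf13 and Tnfsf12 overlap a joined transcript, Tnfsfm13. For Tnfsf13, 60.0% of exon bases were shared with Tnfsfm13 or the antisense Tnfsf13os, and for Tnfsf12, 48.3% were shared. Use of strand in the counting is not given in the sources used here, so counts of both genes are uncertain.

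Promoter windows, taken as the 250 bases before each RefSeq transcript start on GRCm38.p6, were matched for 28 members with 32 starts. They were searched on both strands for the core of interferon-stimulated response elements, GAAA followed by 2 free bases and a second GAAA, for TGANTCA, the AP-1 element, and for the NF-kB consensus. The GAAA pair was found in 4 of the 32 member promoters, at 4 members, against 2.98% of all 32851 promoters searched. The 4 sequences are shown because one of them belongs to Tnfsf13b, the member with the smallest p-value, with the match in capitals and each read along its gene's strand.
Tnfsf13b: tacaaaaactGAAAGTGAAAtgcggaaggc
Tnfrsf14: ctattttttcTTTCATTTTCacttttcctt
Tnfrsf17: aaataggtggTTTCTGTTTCaggaatagtt
Tnfrsf1b: ggcctgagggTTTCGCTTTCagtcaccagc
These lie at chr8:10006607-10006636 (plus strand), chr4:154928122-154928151 (minus strand), chr16:11313698-11313727 (plus strand) and chr4:145246861-145246890 (minus strand). Only the Tnfsf13b match runs along the gene's strand, and the other 3 are on the opposite strand, so that GAAA reads as TTTC. RefSeq lists several starts for some genes and they need not be the GENCODE start. The Tnfsf13b and Tnfrsf14 matches lie before a RefSeq start inside the gene's GENCODE coordinates, and the capitals of Tnfrsf1b and Tnfrsf17 lie before the GENCODE start. In the 250 bases before the GENCODE start of Tnfsf13b, chr8:10006217-10006466, there were 0 matches to any of the 3 motifs.

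The NF-kB consensus was found in 3 of the 32 member promoters, at Tnfrsf25, Tnfrsf8 and Tnfrsf9, against 7.25% of all promoters. TGANTCA was found in 5 of the 32, at Tnfrsf8, Tnfrsf9, Tnfsf13, Tnfsf13b and Tnfsf14, against 6.75%. Tnfrsf25 is shown as the receptor with the smallest p-value. Tnfrsf8 and Tnfrsf9 are shown because both hold both motifs and their levels were low and high in the same Tmem173fl/fl tumors. That choice was made after their levels were seen, and a link between motif and level was not tested. The capitals mark 1 NF-kB match in each, and further matches shifted by 1 base overlap it at Tnfrsf8 and Tnfrsf9.
Tnfrsf25: aaaggggtctGGGGGCCTCCacttctcaga
Tnfrsf8: tcaaaacgcaGGGGAGCCCCctgcgtgcgt
Tnfrsf9: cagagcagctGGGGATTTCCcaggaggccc
Their positions are chr4:152116305-152116334 (plus strand), chr4:145315313-145315342 (minus strand) and chr4:150927946-150927975 (plus strand). The Tnfrsf25 and Tnfrsf9 matches lie before RefSeq starts inside the genes' GENCODE coordinates, and the Tnfrsf8 match lies before its GENCODE start. The 250 bases before the GENCODE start of Tnfrsf25, chr4:152115684-152115933, held 0 matches. A match describes these letters alone and shows no binding.

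Receptors were far more abundant than ligands. In FPKM, which divides by gene length and so allows levels of different genes to be set side by side, the 22 receptors summed to between 265 and 337 per tumor and the 16 ligands to between 30.8 and 60.7. The ratio of receptor to ligand FPKM ran from 5.55 in Tmem173iΔmye tumor 1 to 8.61 in Tmem173iΔmye tumor 3. Of the ligands, 10 of 16 had a mean FPKM under 1, and of the receptors only 3 of 22. Tnfrsf11b, which encodes osteoprotegerin, the soluble decoy for RANKL, gave between 22.6% and 35.8% of all receptor FPKM. Tnf and Tnfsf10, which encodes TRAIL, together gave between 55.8% and 78.7% of all ligand FPKM.

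**Figure D1:**
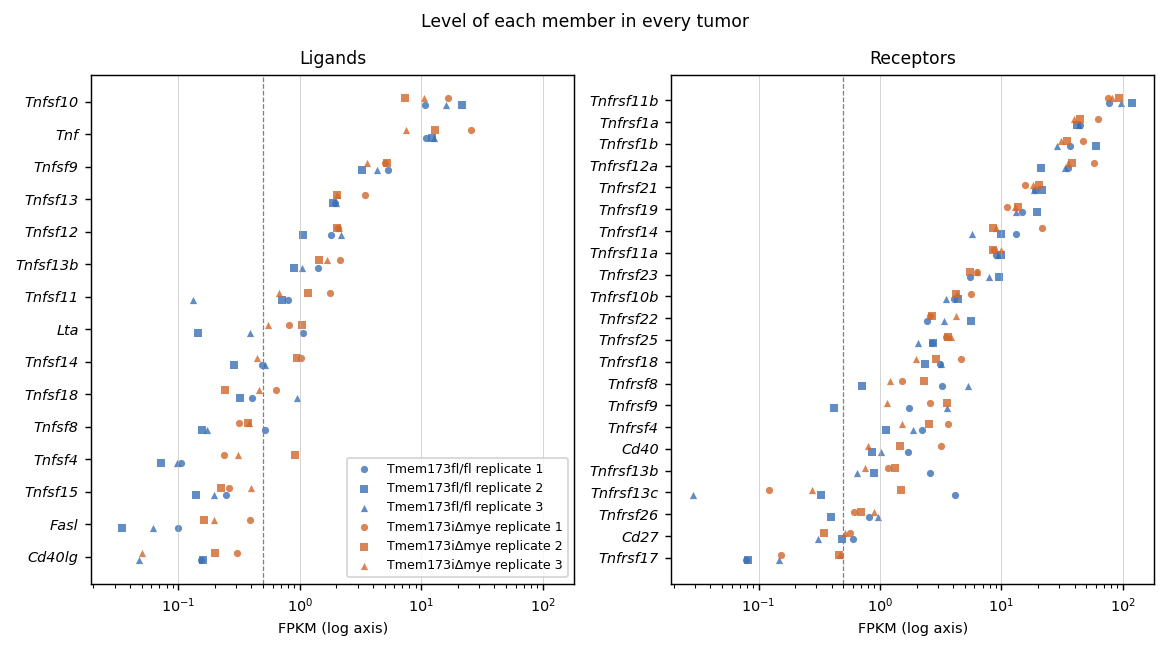
FPKM (log axis) of each ligand (left) and receptor (right) in each of the 6 tumors, with color for genotype, marker shape for replicate and a dashed line at the filter of 0.5, which was applied to the mean. Genes are ordered by their mean, from Tnfrsf11b at 90.7 among the receptors and Tnfsf10 at 13.8 among the ligands down to Tnfrsf17 and Cd40lg, and Cd70, with 0 counts in every tumor, is not drawn.

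Tnfrsf11b had the highest level of the 38, with 77.3, 120 and 96.5 FPKM in Tmem173fl/fl tumors 1, 2 and 3 and 76.1, 92.7 and 81.5 FPKM in Tmem173iΔmye tumors 1, 2 and 3. Its lowest tumor lay above the highest value of the next receptor. This was Tnfrsf1a, the death domain receptor of TNF, with 44.1, 42.0 and 43.4 FPKM in Tmem173fl/fl and 62.2, 44.7 and 39.4 FPKM in Tmem173iΔmye tumors. Tnfrsf1b, the TNF receptor without a death domain, had 36.7, 60.3 and 29.0 FPKM in Tmem173fl/fl and 47.4, 34.5 and 31.0 FPKM in Tmem173iΔmye tumors. Ratios of Tnfrsf1b to Tnfrsf1a ran from 0.668 to 0.786 in 4 tumors and were 0.831 in Tmem173fl/fl tumor 1, and only in Tmem173fl/fl tumor 2, at 1.44, did Tnfrsf1b exceed Tnfrsf1a. Tnfrsf12a, the TWEAK receptor Fn14, had 35.2, 21.2 and 33.3 FPKM in Tmem173fl/fl and 58.0, 38.1 and 35.1 FPKM in Tmem173iΔmye tumors. Ranges of Tnfrsf1a, Tnfrsf1b and Tnfrsf12a overlapped across tumors. Within every tumor Tnfrsf1a exceeded Tnfrsf12a, while the place of Tnfrsf1b changed from tumor to tumor. Tnfrsf21, the death domain receptor DR6, followed with 15.8 to 21.6 FPKM. Tnfrsf19, known as TROY and found in intestinal stem cells, had 11.1 to 19.7 FPKM. These ranges overlapped too, but Tnfrsf21 exceeded Tnfrsf19 in every tumor.

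The genotypes were compared member by member, and none passed after adjustment. A mean FPKM of 0.5 or more was required for testing, which 30 of the 38 reached, 10 ligands and 20 receptors, and all 16426 genes that reached it were fitted together. With edgeR's quasi-likelihood test and Benjamini-Hochberg adjustment over all of them, 0 members had an adjusted p under 0.05, as did 0.0% of all genes, and the smallest adjusted p of a member was 0.742. At an unadjusted p under 0.05 there were 2 of 30 members, Tnfsf13b and Tnfrsf25, both higher in Tmem173iΔmye tumors, against 6.14% of all genes tested (3.23% higher, 2.9% lower). DESeq2, which gave 28 genes an adjusted p under 0.05, gave this to 0 members and found the same 2 at an unadjusted p under 0.05. The study's threshold, a log2 fold change of 1 or more in size with an unadjusted p under 0.05, was passed by 0 members and by 2.12% of all genes (1.26% higher, 0.864% lower). The groups did not overlap for 3 members, all higher in Tmem173iΔmye tumors, against 6.03% of all genes higher and 6.47% lower. Over 30 members, each of these counts differed by at most 2 genes from what the share over all genes would give.

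The median log2 fold change over the 30 members was 0.15, with 18 above 0, against -0.0042 over all genes, of which 49.4% were above 0. Ligands had a median of 0.35, with 8 of 10 above 0, and receptors a median of -0.028, with 10 of 20 above 0. Among these ligands, Tnfsf14 reached the filter only through Tmem173iΔmye tumors (mean FPKM 0.805, against 0.430 in Tmem173fl/fl tumors). Tnfsf18 reached it only through Tmem173fl/fl tumors (0.560, against 0.447 in Tmem173iΔmye tumors). The 4 death domain receptors, Tnfrsf1a, Tnfrsf10b, Tnfrsf21 and Tnfrsf25, had 3 above 0, and the 3 decoys, Tnfrsf11b, Tnfrsf22 and Tnfrsf23, had 0. Tmem173iΔmye tumor 1 was the highest of the 6 tumors for 12 of 30 members (40.0%), against 24.9% of all genes, and Tmem173fl/fl tumor 2 the lowest for 11 (36.7%), against 27.1%. Without Tmem173iΔmye tumor 1 the members' median was -0.040 and that of the ligands 0.16.

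**Figure D2:**
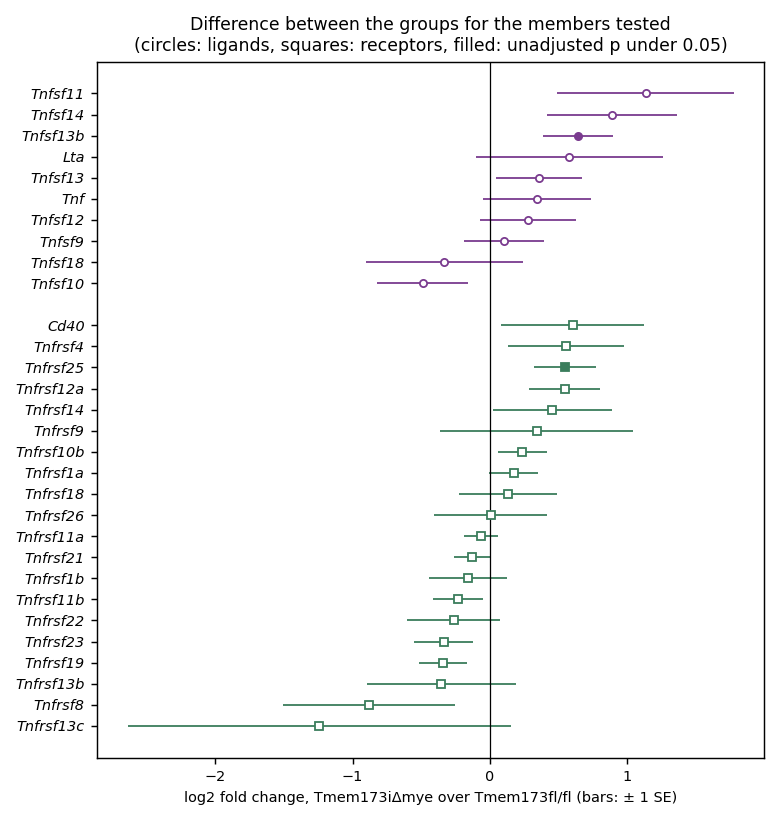
Log2 fold change (Tmem173iΔmye over Tmem173fl/fl, horizontal axis) of the 30 members tested, with bars of ± 1 SE, ligands as circles above and receptors as squares below. Only Tnfsf13b and Tnfrsf25 (filled) had an unadjusted p under 0.05, and 8 of 10 ligands but 10 of 20 receptors lie right of 0.

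Tnfsf13b, which encodes BAFF, a ligand made by myeloid and stromal cells that keeps B cells alive, lies at chr8:10006467-10039072. It had 152, 93 and 121 counts in Tmem173fl/fl tumors 1, 2 and 3, or 9.88, 6.20 and 7.26 CPM, and 235, 158 and 183 counts in Tmem173iΔmye tumors, or 14.8, 9.96 and 11.7 CPM. Every Tmem173iΔmye tumor lay above every Tmem173fl/fl tumor, but Tmem173iΔmye tumor 2 exceeded Tmem173fl/fl tumor 1 by less than 0.1 CPM. Means were 7.78 ± 1.90 CPM (SD, n = 3) in Tmem173fl/fl and 12.1 ± 2.48 CPM (SD, n = 3) in Tmem173iΔmye tumors. The log2 fold change was 0.64 (SE 0.26, adjusted p = 0.742 from edgeR), and it was 0.47 without Tmem173iΔmye tumor 1 and 0.56 with Y-linked reads as a covariate. Its unadjusted p stayed under 0.05 by edgeR in 2 of the 6 fits that left out a tumor. The tumor with the highest interferon-inducible sum was also the highest for Tnfsf13b, and the part of interferon-inducible expression or of sex in this difference was not tested beyond these fits.

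For the other ligand of this branch and for its receptors the unadjusted p was above 0.05 by edgeR. Tnfsf13, which encodes APRIL, a survival factor of plasma cells, had 3.25, 3.07 and 3.30 CPM in Tmem173fl/fl and 5.68, 3.34 and 3.31 CPM in Tmem173iΔmye tumors (log2 fold change 0.36, SE 0.32, adjusted p = 0.787 from edgeR). Its groups did not overlap, but Tmem173fl/fl tumor 3 and Tmem173iΔmye tumor 3 were nearly equal, and the fold change was 0.05 without Tmem173iΔmye tumor 1. Tnfrsf13c, the BAFF receptor of B cells, had 132, 10 and 1 counts in Tmem173fl/fl and 4, 49 and 9 counts in Tmem173iΔmye tumors. Tnfrsf13b, which encodes TACI and binds both ligands, had 114, 38 and 31 counts in Tmem173fl/fl and 52, 60 and 34 in Tmem173iΔmye tumors. Both receptors were highest in Tmem173fl/fl tumor 1 and next in CPM in Tmem173iΔmye tumor 2, and varied more within the groups than between them. Log2 fold changes were -1.24 (SE 1.40) for Tnfrsf13c and -0.35 (SE 0.54) for Tnfrsf13b, both smaller than their error. The 5 B cell markers, Ms4a1 and Pax5 among them, summed to 96.2, 16.5 and 5.10 CPM in Tmem173fl/fl and 6.50, 53.2 and 5.35 CPM in Tmem173iΔmye tumors, high in the same 2 tumors as Tnfrsf13c. The part of B cell content in the level of Tnfrsf13c was not tested.

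**Figure D3:**
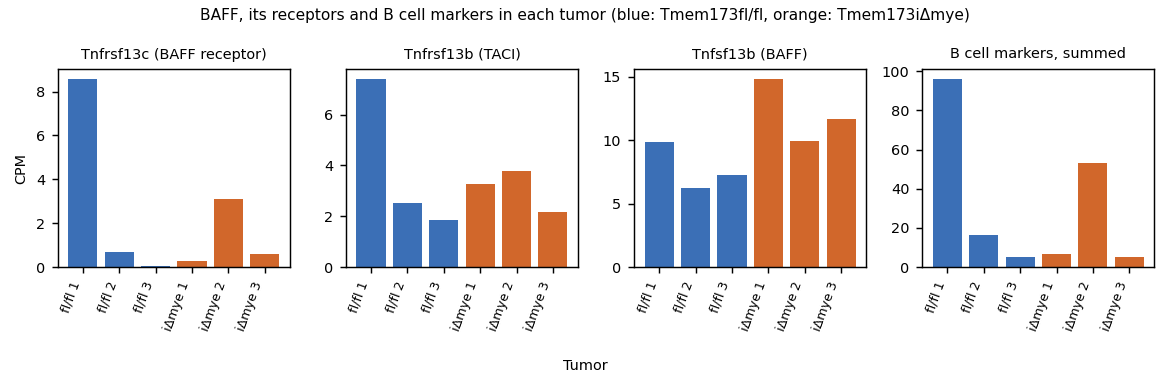
CPM of Tnfrsf13c, Tnfrsf13b and Tnfsf13b and the summed CPM of 5 B cell markers in each tumor (bars from 0, 1 bar per tumor, blue for Tmem173fl/fl and orange for Tmem173iΔmye). Tnfrsf13c and the B cell markers are highest in Tmem173fl/fl tumor 1, at 8.58 and 96.2 CPM, and next in Tmem173iΔmye tumor 2, at 3.09 and 53.2 CPM, while Tnfsf13b is highest in Tmem173iΔmye tumor 1.

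Tnfrsf25, which encodes DR3, a death domain receptor of T cells and innate lymphoid cells, lies at chr4:152115934-152120119. It had 95, 94 and 79 counts in Tmem173fl/fl and 126, 133 and 138 counts in Tmem173iΔmye tumors, or 5.73 ± 0.856 CPM (SD, n = 3) and 8.37 ± 0.415 CPM (SD, n = 3). The gap between the groups was wider than the spread within either. Its log2 fold change was 0.55 (SE 0.22, adjusted p = 0.742 from edgeR), and it was as large, 0.58, without Tmem173iΔmye tumor 1. Its unadjusted p stayed under 0.05 by edgeR in 1 of the 6 fits that left out a tumor and was above it when all genes with any count were fitted. The ligand of DR3, Tnfsf15 or TL1A, had a mean of only 0.245 FPKM, with 13, 7 and 11 counts in Tmem173fl/fl and 14, 12 and 21 counts in Tmem173iΔmye tumors, and was not tested. The 8 T cell markers summed to between 20.1 and 38.4 CPM in Tmem173fl/fl and between 24.7 and 42.7 CPM in Tmem173iΔmye tumors, and 7 of the 8 had a log2 fold change above 0, with Trac at 0.82 (SE 0.35, adjusted p = 0.742 from edgeR). Their part in the level of Tnfrsf25 was not tested.

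The filter was not reached by 8 members. Cd70 had 0 counts in every tumor, which allows up to 3 counts in each, and the others were the ligands Fasl, Cd40lg, Tnfsf4, Tnfsf8 and Tnfsf15 and the receptors Cd27 and Tnfrsf17. Tnfsf4, the OX40 ligand, had 3, 2 and 3 counts in Tmem173fl/fl and 7, 27 and 9 counts in Tmem173iΔmye tumors. Fasl, the ligand of the death receptor Fas, had 3, 1 and 2 counts in Tmem173fl/fl and 12, 5 and 6 counts in Tmem173iΔmye tumors. Tnfrsf17, which encodes BCMA of plasma cells, had 1, 1 and 2 counts in Tmem173fl/fl and 2, 6 and 6 counts in Tmem173iΔmye tumors. In CPM, these 3 of the 8 members under the filter had every Tmem173iΔmye tumor above every Tmem173fl/fl tumor. For Tnfrsf17, Tmem173fl/fl tumor 3 and Tmem173iΔmye tumor 1 both had 2 counts. Scaling alone set them apart, at 0.120 and 0.126 CPM. Of 14513 genes under the filter with any count, 2.36% were all higher and 4.18% all lower in Tmem173iΔmye tumors. That set takes genes with however few counts, so its shares are not matched to these members. The ratio of Tmem173iΔmye to Tmem173fl/fl reads was 5.33 for Tnfsf4 (95% counting interval 2.48 to 13.1), 3.80 for Fasl (1.51 to 11.4) and 3.47 for Tnfrsf17 (1.09 to 14.5), and these intervals cover counting error only. Fitted by edgeR with all 30939 genes with any count, Tnfsf4 had a log2 fold change of 2.37 (adjusted p = 0.586) and Fasl of 1.88 (adjusted p = 0.767). Both passed the study's threshold in that fit, as did 2.82% of its genes (1.54% higher). Tmem173iΔmye tumor 2 held 27 of the 43 Tmem173iΔmye reads of Tnfsf4, and without it that gene was at 1.55 and no longer passed. Fasl was at 1.41 without Tmem173iΔmye tumor 1 and at 1.59 without Tmem173fl/fl tumor 2, and did not pass in either case, nor without replicate 3 of either group. Of the remaining rare members, Tnfsf8, Cd27 and Cd40lg overlapped between the groups.

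TNF itself did not differ beyond the spread between tumors. Tnf had 283, 299 and 352 counts in Tmem173fl/fl and 665, 338 and 193 counts in Tmem173iΔmye tumors, or 19.8 ± 1.37 CPM (SD, n = 3) and 25.2 ± 15.2 CPM (SD, n = 3). The Tmem173iΔmye tumors held both the highest and the lowest value of the 6. The log2 fold change was 0.35 (SE 0.39, adjusted p = 0.832 from edgeR), and it turned to -0.24 without Tmem173iΔmye tumor 1. Its neighbor Lta, lymphotoxin alpha, had 23, 3 and 9 counts in Tmem173fl/fl and 18, 23 and 12 counts in Tmem173iΔmye tumors, and its groups overlapped. Log2 fold changes of the TNF receptors were 0.17 (SE 0.18) for Tnfrsf1a and -0.16 (SE 0.28) for Tnfrsf1b. TNF receptor 1 therefore lay within 1 SE of no difference, as did receptor 2, and the sign of each changed when 1 tumor was left out.

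In the TRAIL branch no member passed the test. Tnfsf10, the death ligand TRAIL, had 883, 1707 and 1425 counts in Tmem173fl/fl and 1392, 619 and 878 counts in Tmem173iΔmye tumors, and its log2 fold change was -0.49 (SE 0.33, adjusted p = 0.757 from edgeR). The groups overlapped through Tmem173iΔmye tumor 1, and without it the fold change was -0.85, with an unadjusted but not an adjusted p under 0.05 by edgeR. Other tumors moved it the other way. The fold change of Tnfsf10 was -0.23 without Tmem173fl/fl tumor 2 and -0.25 without Tmem173iΔmye tumor 2, both with an unadjusted p above 0.05 by edgeR. Tnfrsf10b, the signalling TRAIL receptor DR5, had 346, 361 and 322 counts in Tmem173fl/fl and 487, 367 and 373 counts in Tmem173iΔmye tumors (log2 fold change 0.24, SE 0.18, adjusted p = 0.766 from edgeR). The mouse decoy TRAIL receptors had log2 fold changes of -0.26 (SE 0.34) for Tnfrsf22 and -0.34 (SE 0.21) for Tnfrsf23. Tnfrsf23 had 340, 569 and 522 counts in Tmem173fl/fl and 395, 352 and 396 in Tmem173iΔmye tumors, and Tnfrsf22 had 160, 354 and 240 counts and 173, 180 and 284 counts. Both were highest in Tmem173fl/fl tumor 2, and the third gene of that row, Tnfrsf26, had a fold change of 0.01 (SE 0.41).

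In the RANKL branch the ligand was scarce and its decoy abundant. Tnfsf11, which encodes RANKL, had 28, 24 and 5 counts in Tmem173fl/fl and 63, 42 and 24 counts in Tmem173iΔmye tumors. At 1.13 (SE 0.64, adjusted p = 0.742 from edgeR) its log2 fold change was the highest of the 30 members tested, but Tmem173iΔmye tumor 3 lay within the Tmem173fl/fl range in CPM. Tnfrsf11a, the signalling receptor RANK, had the smallest ratio of highest to lowest CPM of the members tested, 1.17, with 818 to 946 counts over the 6 tumors and a log2 fold change of -0.06 (SE 0.12). Tnfrsf11b had 3401, 5060 and 4562 counts in Tmem173fl/fl and 3408, 4179 and 3626 in Tmem173iΔmye tumors (log2 fold change -0.23, SE 0.18, adjusted p = 0.770 from edgeR). Without Tmem173fl/fl tumor 2, its highest, the fold change was -0.066. Mean FPKM of the decoy was 103 times that of the ligand, and its ratio ran from 42.9 to 724 over the tumors.

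Tnfrsf12a, which is induced by growth factors and injury in epithelium, had 1063, 613 and 1080 counts in Tmem173fl/fl and 1780, 1179 and 1071 counts in Tmem173iΔmye tumors. Its means were 58.3 ± 15.2 CPM (SD, n = 3) against 85.0 ± 24.0 CPM (SD, n = 3), with a fold change of 0.54 on the log2 scale (SE 0.26, adjusted p = 0.742 from edgeR). Tmem173fl/fl tumor 2 was the lowest and Tmem173iΔmye tumor 1 the highest, and the fold change was 0.29 without the latter. Its ligand Tnfsf12, known as TWEAK, had 43, 24 and 56 counts in Tmem173fl/fl and 50, 49 and 50 counts in Tmem173iΔmye tumors. Tnfrsf19 had 1084, 1400 and 1058 counts in Tmem173fl/fl and 832, 1031 and 976 counts in Tmem173iΔmye tumors, and at a log2 fold change of -0.34 with an SE of 0.17 it had the smallest p of the members that were lower (adjusted p = 0.742 from edgeR). Its highest Tmem173iΔmye tumor, at 65.0 CPM, exceeded only the lowest Tmem173fl/fl tumor, at 63.5 CPM. Without Tmem173fl/fl tumor 2, the highest for Tnfrsf19, its fold change was -0.16. Tnfrsf21 had 1216, 1328 and 1284 counts in Tmem173fl/fl and 1029, 1332 and 1179 counts in Tmem173iΔmye tumors (log2 fold change -0.13, SE 0.14).

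Among the other tested members that act on lymphocytes and antigen-presenting cells, all overlapped between the groups and 0 had an unadjusted p under 0.05 by edgeR. Tnfsf14, which encodes LIGHT, had 14, 8 and 16 counts in Tmem173fl/fl and 30, 28 and 13 counts in Tmem173iΔmye tumors (log2 fold change 0.89, SE 0.47, adjusted p = 0.742 from edgeR). This ligand reached the filter only through the Tmem173iΔmye tumors. Its receptor Tnfrsf14, known as HVEM, had 294, 212 and 137 counts in Tmem173fl/fl and 496, 198 and 205 counts in Tmem173iΔmye tumors. That fold change, 0.46 (SE 0.43), turned to -0.12 without Tmem173iΔmye tumor 1. Tnfrsf4, which encodes OX40, had 47, 23 and 43 counts in Tmem173fl/fl and 79, 55 and 33 counts in Tmem173iΔmye tumors (log2 fold change 0.56, SE 0.42). Tnfrsf8, known as CD30 and found on activated lymphocytes, had 174, 37 and 307 counts in Tmem173fl/fl and 83, 128 and 66 counts in Tmem173iΔmye tumors (log2 fold change -0.88, SE 0.62, adjusted p = 0.757 from edgeR). Tnfrsf9, which encodes 4-1BB of activated T cells and was chosen for this comparison after its values were seen, had 74, 17 and 163 counts in Tmem173fl/fl and 112, 155 and 49 counts in Tmem173iΔmye tumors. Both Tnfrsf8 and Tnfrsf9 were lowest in tumor 2 and highest in tumor 3 of the Tmem173fl/fl group, and in the Tmem173iΔmye group highest in tumor 2 and lowest in tumor 3. Over all 6 tumors the highest value was 7.47 times the lowest for Tnfrsf8 and 8.63 times for Tnfrsf9, in CPM. Cd40, the receptor that licenses antigen-presenting cells, was at a log2 fold change of 0.60 (SE 0.52), and was highest in Tmem173iΔmye tumor 1 at 10.9 CPM against 2.74 to 5.85 CPM elsewhere. The remaining tested members, Tnfsf9, Tnfsf18 and Tnfrsf18, had log2 fold changes of 0.10, -0.33 and 0.13, each within 1 SE of 0.

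**Figure D4:**
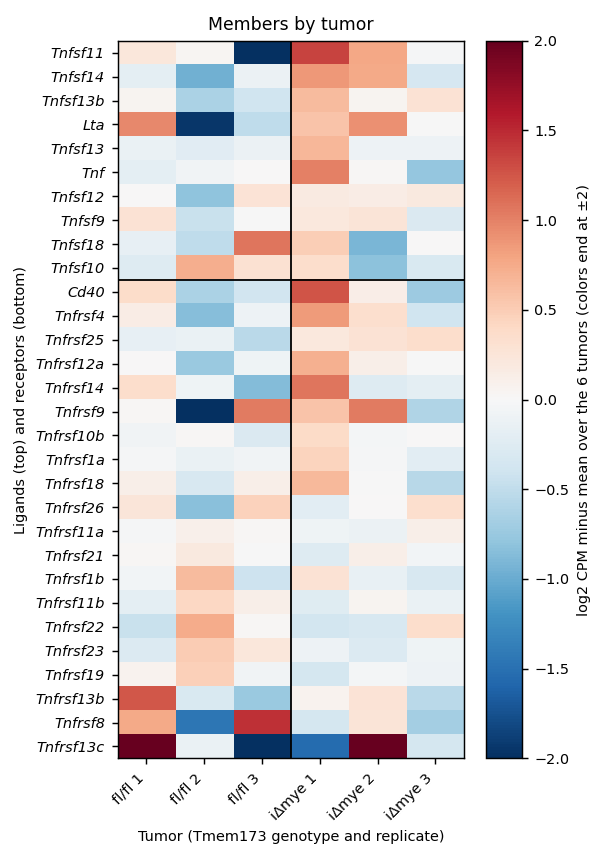
Log2 CPM minus its mean over the 6 tumors (color, cut at ± 2) for the 30 members tested, with ligands above the horizontal line, receptors below it and the groups divided by the vertical line. Tmem173iΔmye tumor 1 is the highest tumor for 12 members and Tmem173fl/fl tumor 2 the lowest for 11, and Tnfrsf8 and Tnfrsf9 share low values in Tmem173fl/fl tumor 2 and high values in tumor 3.

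Set side by side per length, receptors exceeded their ligands in most pairs. Mean FPKM of Tnfrsf1a was 3.36 times that of Tnf and mean FPKM of Tnfrsf12a 19.6 times that of Tnfsf12, in each case with the receptor above the ligand in 6 of 6 tumors. The same held in 6 of 6 tumors for HVEM over LIGHT (18.3 times), DR3 over TL1A (12.6 times), RANK over RANKL (10.6 times) and Cd40 over Cd40lg (9.86 times). Among the pairs compared here, TRAIL went the other way, with its level above those of Tnfrsf10b, Tnfrsf22 and Tnfrsf23 in all 6 tumors. So did Tnfsf9, the 4-1BB ligand, over Tnfrsf9. Tnfrsf11b was not among the receptors paired with TRAIL. BAFF exceeded Tnfrsf13b in 5 tumors, Tnfrsf13c in 4 and Tnfrsf17 in 6. Whether the ligand and its receptor were made by the same cells cannot be read from whole tissue.

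**Figure D5:**
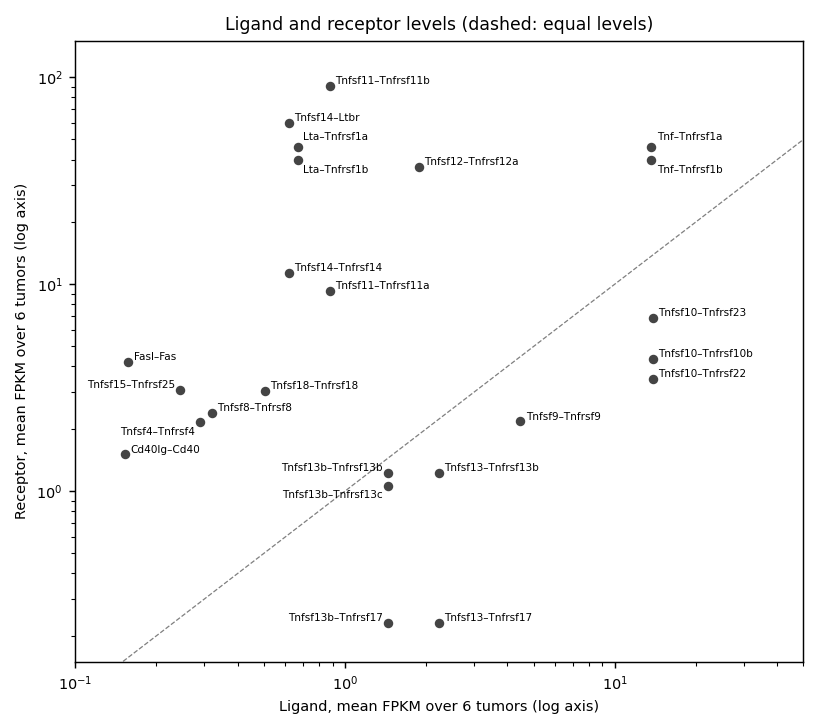
Mean FPKM over 6 tumors of each ligand (horizontal, log axis) against its receptor (vertical, log axis), with 1 point per pair and a dashed line of equal levels; Cd70 with Cd27 is not drawn because the ligand had 0 counts. Tnfsf11 with its decoy Tnfrsf11b is highest above the line, at a ratio of 103, and the pairs of Tnfsf10, Tnfsf9, Tnfsf13 and Tnfsf13b lie below it.

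Superfamily genes outside the naming rule gave no called difference. Of 8 such genes, 6 were tested, all with fold changes above 0 and a median of 0.19, and 0 had an unadjusted p under 0.05 by edgeR. Ltbr, the lymphotoxin beta receptor, was the most abundant of them, with 2178 to 2273 counts in Tmem173fl/fl and 2179 to 2358 counts in Tmem173iΔmye tumors. Eda2r had the smallest p of these (log2 fold change 0.59, SE 0.44, adjusted p = 0.764 from edgeR), ahead of Ngfr at 0.45, Relt at 0.26 and Ltb at 0.11.

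Downstream of the receptors, the lists of signalling proteins had medians near that of all genes. Of 19 adaptors and TRAF proteins, 7 had a fold change above 0 (median -0.046) and 0 an unadjusted p under 0.05 by edgeR, with Traf6 at -0.35 (SE 0.17), Birc3 at -0.30 (SE 0.15) and Traf1, itself an NF-kB target, at 0.72 (SE 0.37). Likewise 4 of 11 negative regulators were above 0 (median -0.019), led by the deubiquitinase Cyld at -0.21 (SE 0.12), and 5 of 10 NF-kB subunits and kinases (median -0.020), led by Rel at -0.64 (SE 0.34). Shedding enzymes, which release TNF and its receptors from the membrane, had 2 of 5 above 0 (median -0.035). None of the genes in these 4 lists had an unadjusted p under 0.05 by edgeR.

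Among death effectors, 9 of 10 were above 0, with a median of 0.35, and 2 of 10 had an unadjusted p under 0.05 by edgeR, against 49.4% and 6.14% of all genes. The groups did not overlap for 3 of them, Casp8 and Bid higher and Apaf1 lower in Tmem173iΔmye tumors, against 6.03% of all genes higher and 6.47% lower. Bax, which opens mitochondria, had a log2 fold change of 0.63 (SE 0.24), but its groups overlapped. Apaf1, the scaffold of the apoptosome, was lower in Tmem173iΔmye tumors (-0.50, SE 0.13). Both had an unadjusted p under 0.05 and an adjusted p = 0.742 from edgeR. Apaf1 had 1736, 2161 and 2122 counts in Tmem173fl/fl and 1445, 1511 and 1344 counts in Tmem173iΔmye tumors. Casp8, the initiator caspase of death receptors, had 1930, 1888 and 2118 counts in Tmem173fl/fl and 3043, 2360 and 2183 in Tmem173iΔmye tumors (log2 fold change 0.34, SE 0.15, adjusted p = 0.742 from edgeR), and Bid, which it cleaves, was at 0.35 (SE 0.17). Without Tmem173iΔmye tumor 1 the median of the list was 0.11.

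Genes that TNF is known to induce had 11 of 14 above 0 and a median of 0.26, with 0 at an unadjusted p under 0.05 by edgeR, and the median was -0.017 without Tmem173iΔmye tumor 1. Ccl2, a monocyte chemokine, had 49, 60 and 75 counts in Tmem173fl/fl and 245, 67 and 72 counts in Tmem173iΔmye tumors, and Cxcl1 had 208, 279 and 233 counts and 713, 270 and 152 counts. In both, Tmem173iΔmye tumor 1 alone stood above the rest, as it did for Tnf. The 20 interferon-inducible genes were all above 0, against 49.4% of all genes, with a median of 1.42 and 0.50 without that tumor. An unadjusted p under 0.05 by edgeR was held by 16 of the 20, against 6.14% of all genes, and an adjusted p under 0.05 by 0. These genes were listed with earlier results of these data known, so the counts are no independent support. This list is given only as a level that moved with the tumors. Sums of macrophage and monocyte markers, cells in which Cre is active, overlapped between the groups. They were 422 to 676 CPM in Tmem173fl/fl and 387 to 652 CPM in Tmem173iΔmye tumors. Those of neutrophil markers ran from 67.3 to 211 CPM and from 111 to 381 CPM. Those of 6 dendritic cell markers, of which 2 reached the filter, ran from 19.5 to 33.6 CPM and from 27.0 to 36.1 CPM. Their part in the levels of Tnf, Tnfsf13b or Cd40 was not tested.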

How the data were processed

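RNA-seq of 6 tumors, 3 per genotype, was analysed from 1 deposited table. It holds raw read counts per gene and FPKM values made from them by the authors, and their own comparison as log2 fold changes and p-values, which was not used. The submitters' processing notes name CASAVA 1.8, fastp, HISAT2 2.0.5, featureCounts 1.5.0-p3, DESeq2 1.20.0 and GRCm38. The quasi-likelihood test of edgeR 4.0.16 (R 4.3.3, TMM normalization, no term but the group, Benjamini-Hochberg adjustment) was run on the counts of 16426 genes, those whose mean FPKM reached 0.5. CPM use TMM-normalized library sizes. SE was taken from the F statistic, as the size of the log2 fold change over the root of F. Exact permutation of 3 against 3 tumors cannot go below p = 0.1 and was not used. Totals ran from 15329810 to 16533732 counts, and genes with at most 3 counts in every tumor have no usable fold change. The replicate numbers in the titles were not taken as pairs.

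Full values per tumor are given for the 6 most abundant members, the 5 with the lowest p in each direction, those whose groups did not overlap, Tnf and the partners of these. Up to 4 genes with the lowest p are named from each other list. One B cell marker is not reported here and was left out of its list. The members and all lists were chosen with earlier results of these data known. Alternatives were median-of-ratios scaling, all genes with any count, a mean FPKM of at least 1, the replicate block, Y-linked reads as a covariate, each tumor left out, DESeq2 1.42.0, limma 3.58.1 with voom and limma on log2(FPKM + 1). Leaving out tumors in the fit of all genes with any count was added after the values were seen. In simulated counts for 16426 genes, 200 of them changed, edgeR called 105 at an adjusted p under 0.05, 93 of them correctly and 12 of them unchanged genes, and it found 28% of log2 changes of 1 and 65% of 2. Promoter sequences are RefSeq's for GRCm38.p6. Proteins were not analysed here.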

Additional observations from a re-analysis of the deposited data

How the results depend on the processing

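No member had an adjusted p under 0.05 in any of the 14 alternatives or in the added fits (0 of 457 values), and 23 of 37 members with a fitted fold change kept their direction throughout. The number of genes past the study's threshold, 349, was 872 with all genes with any count, 211 with Y-linked reads as a covariate, 136 with limma on log2(FPKM + 1), and 218 to 636 when a tumor was left out. The number of members past it, 0, was 2 with any count (Tnfsf4 and Fasl), 1 with the replicate block (Tnfsf11) and 0 to 1 when a tumor was left out (Lta without Tmem173fl/fl replicate 1, Tnfrsf8 without Tmem173fl/fl replicate 2, Tnfsf14 without Tmem173iΔmye replicate 3). The causes of these changes were not tested. The fit of any count took in 30939 genes, against 16426 in the main fit. The members' median ran from -0.040 to 0.28 when a tumor was left out.

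Same-numbered tumors had correlations of 0.315, 0.0085 and 0.154 in their deviations from the group means, and differently numbered tumors from -0.374 to 0.223. The highest value was that of the tumors numbered 1, while Tmem173fl/fl tumor 2 correlated best with Tmem173iΔmye tumor 3. These values do not settle whether the numbers pair the tumors, and the numbers were not taken as pairs. With the replicate block, 377 genes passed the threshold and 3 members, Tnfrsf12a, Tnfsf13b and Tnfsf11, had an unadjusted p under 0.05 by edgeR, with a members' median of 0.13 and Tnfrsf13c at 0.00083.

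Of the 37 members, 14 changed sign in at least 1 alternative, among them Tnfrsf13c, whose fold change was the largest in size of those tested. With the Y-linked covariate, Tnfrsf22 was at 0.012, Tnfsf9 at -0.070 and Tnfrsf18 at -0.11, and no member had an unadjusted p under 0.05 by edgeR. Tnfrsf26 was at -0.00066 with size factors and -0.0012 with DESeq2, and Tnfrsf13c at 0.048 with voom. When a tumor was left out, log2 fold changes ran from -0.36 to 0.19 for Tnfrsf1b, -0.040 to 0.31 for Tnfrsf1a, -0.24 to 0.67 for Tnf, -0.12 to 0.76 for Tnfrsf14, -0.53 to 0.12 for Tnfrsf22, -0.13 to 1.16 for Tnfrsf9, -0.068 to 0.28 for Tnfsf9, -0.087 to 0.96 for Cd40, -0.24 to 0.38 for Tnfrsf18, -0.69 to 0.49 for Tnfrsf13b, -0.29 to 0.27 for Tnfrsf26, -2.88 to 1.85 for Tnfrsf13c, -0.18 to 0.29 for Cd27 (any count; also -0.099 without Tmem173iΔmye replicate 1 and -0.013 without replicate 3) and -0.68 to 0.30 for Tnfsf18. Depth limits the rarest members: Cd70 had 0 counts and Cd40lg at most 6 in any tumor.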
